A study of Mus musculus with 18 samples.

Results

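Kit, Aldh1a3, Cd14, Mfge8, Wfdc18 and Trf are a set of surface, enzyme and secreted markers of luminal progenitors, the proliferative cells of the inner epithelial layer of the mammary gland. These 6 genes were taken by name from the 55536 genes of the deposited table, and all 6 were found and passed the filter on low counts, which left 17092 genes for testing. RNA was measured by sequencing in 18 libraries from mouse mammary organoids, small epithelial structures grown in a gel. The organoids came from glands of C57BL/6 mice aged 6 to 7 weeks, embedded in matrigel fed DMEM/F12 supplemented with Insulin-Transferrin-Selenium, and treated for 5 days. Mice were either RasGRP1-/- (KO), lacking a Ras exchange factor, or wild type (WT), and which exons the KO allele removes was not stated in the labels. ERW medium held EGF (epidermal growth factor) at 2.5 nM, NGS-Wnt (a surrogate Wnt ligand) at 0.1 nM and Rspo2 (R-spondin 2, which strengthens Wnt responses) at 8.3 nM. EGF medium held EGF alone at the same dose, and RW medium held NGS-Wnt and Rspo2 at the same doses without EGF. The 6 groups, KO ERW, WT ERW, KO EGF, WT EGF, KO RW and WT RW, had 3 biological replicates each. A batch label equal to the replicate number gave every batch 1 library of every group. Which animals the replicates came from is not given, so p-values measure the spread between these samples.

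In the gland, luminal progenitors lie between basal stem-like cells and the secretory cells of pregnancy, and they lack the oestrogen receptor that marks hormone-sensing luminal cells. Their surface is used to sort them: Kit is a receptor tyrosine kinase for stem cell factor (Kitl), and Cd14 is a co-receptor that hands bacterial lipopolysaccharide to Tlr4. Aldh1a3 is an enzyme that oxidises retinal to retinoic acid, and part of the aldehyde dehydrogenase activity by which progenitors are recognised. Mfge8 (lactadherin) is secreted on milk fat globules and bridges phosphatidylserine on dying cells to integrins of the phagocyte. Trf (transferrin) carries iron in plasma and milk, and Wfdc18 is a small secreted protein of the whey acidic protein family. On GRCm38, Kit lies at chr5:75574916-75656722 (plus strand), Aldh1a3 at chr7:66390890-66427517 (minus), Cd14 at chr18:36725074-36726736 (minus), Mfge8 at chr7:79133768-79149060 (minus), Wfdc18 at chr11:83709015-83711348 (plus) and Trf at chr9:103204001-103230444 (minus). All 6 are protein-coding. Exons of Trf overlap those of Gm20425 on the same strand, for which the deposited table held no count above 0. Whether reads in the shared exons were counted for Trf was not tested.

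Total counts ran between 24290097 and 31269899 per library. The targeted gene Rasgrp1 had 0 to 9 counts in the 9 KO libraries, of which 5 were at 0, and 6 to 28 counts in the 9 WT libraries. Summed levels of 8 genes of luminal keratins and epithelium (Krt8, Krt18, Krt19, Krt7, Epcam, Cdh1, Cd24a and Gata3) were between 4529 and 6748 CPM (counts scaled to library size) in the 18 libraries. These are bulk samples, in which fewer cells of a type and less RNA per cell cannot be told apart.

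Per kilobase of exon, Wfdc18 was the most abundant of the 6 genes, with a mean over 18 libraries of 1132 RPKM (CPM per kilobase). Mfge8 averaged 326 RPKM and Cd14 312 RPKM, with ranges over libraries of 161 to 629 RPKM and 109 to 512 RPKM. Aldh1a3 averaged 169 RPKM, and Kit averaged 125 RPKM. Trf was far lower, at 6.28 RPKM, with 225 to 1023 counts per library, so that its values rest on the fewest reads of the set. Any reads left uncounted in the exons shared with Gm20425 would make this level too low.

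Promoters of Mfge8, Wfdc18 and Kit are shown, since these 3 of the 6 genes matched an entry; Mfge8 differed between media, and Wfdc18 and Kit did not pass the test between any. They are RefSeq sequences on GRCm38.p6, from 250 bases before to 50 after the start. Mfge8 is at chr7:79149011-79149310 (minus strand), Wfdc18 at chr11:83708754-83709053 (plus) and the first of 2 Kit entries at chr5:75574737-75575036 (plus). Capitals mark a match to a searched motif.
Mfge8: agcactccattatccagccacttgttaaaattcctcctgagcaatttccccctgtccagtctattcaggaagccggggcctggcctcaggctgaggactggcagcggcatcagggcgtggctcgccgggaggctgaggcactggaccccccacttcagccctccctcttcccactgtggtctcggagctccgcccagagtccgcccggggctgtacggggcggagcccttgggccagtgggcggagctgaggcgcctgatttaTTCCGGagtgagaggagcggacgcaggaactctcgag
Wfdc18: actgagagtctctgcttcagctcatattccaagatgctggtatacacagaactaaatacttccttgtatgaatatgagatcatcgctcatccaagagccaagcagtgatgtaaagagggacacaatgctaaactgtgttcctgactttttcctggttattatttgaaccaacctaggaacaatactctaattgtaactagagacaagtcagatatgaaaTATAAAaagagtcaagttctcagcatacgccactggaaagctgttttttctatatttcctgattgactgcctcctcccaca
Kit: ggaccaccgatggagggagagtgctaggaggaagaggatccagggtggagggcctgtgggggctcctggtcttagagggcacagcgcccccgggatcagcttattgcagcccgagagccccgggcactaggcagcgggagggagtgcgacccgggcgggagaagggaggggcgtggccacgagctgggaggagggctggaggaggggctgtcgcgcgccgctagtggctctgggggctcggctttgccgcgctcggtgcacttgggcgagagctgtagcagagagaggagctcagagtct
Both strands were searched for an ETS core (CCGGAA), AP-1 (TGANTCA), TCF/LEF (CTTTGAT), STAT (TTCNNNGAA) and a nuclear receptor element (AGGTCA). The Mfge8 promoter held 1 of them, an ETS core on the reverse strand 14 bases after the start, and 15.2% of 27025 promoters of the same length hold that motif. None of the searched letters was found in the Wfdc18 or Kit window; among all promoters AP-1 was held by 7.93%, TCF/LEF by 3.72%, STAT by 8.47% and the nuclear receptor element by 16.0%. TATAAA, searched after the sequences had been seen, lies 31 bases before the Wfdc18 start and in 14.2% of promoters. Base composition differed, with G and C making up 64.3% of the Mfge8 window, 39% of the Wfdc18 window and 69% of the Kit window.

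In EGF medium, Aldh1a3, Cd14, Mfge8 and Trf were all higher than in RW medium, by 2.39- to 2.97-fold in KO organoids and 2.32- to 3.12-fold in WT organoids, while Kit and Wfdc18 did not pass the test. A gene was called when its adjusted p was under 0.05 in edgeR's quasi-likelihood test with batch as a block and Benjamini-Hochberg adjustment over all genes tested. Thus 4 of the 6 genes were called in KO organoids, where 13.5% of all genes tested were called, and the same 4 in WT organoids, where 15.4% were. In ERW against RW medium, which differ by EGF, Cd14, Mfge8 and Trf were higher in both genotypes, against 12.7% of genes called in KO and 10.7% in WT. In ERW against EGF medium, which differ by NGS-Wnt and Rspo2, Aldh1a3, Mfge8 and Cd14 were lower in both genotypes, against 11.6% of genes called in KO and 15.6% in WT. The 3 media comparisons share libraries, so their values are not independent of each other. Counts of called genes in the lists below are to be read against these same shares.

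**Figure D1:**
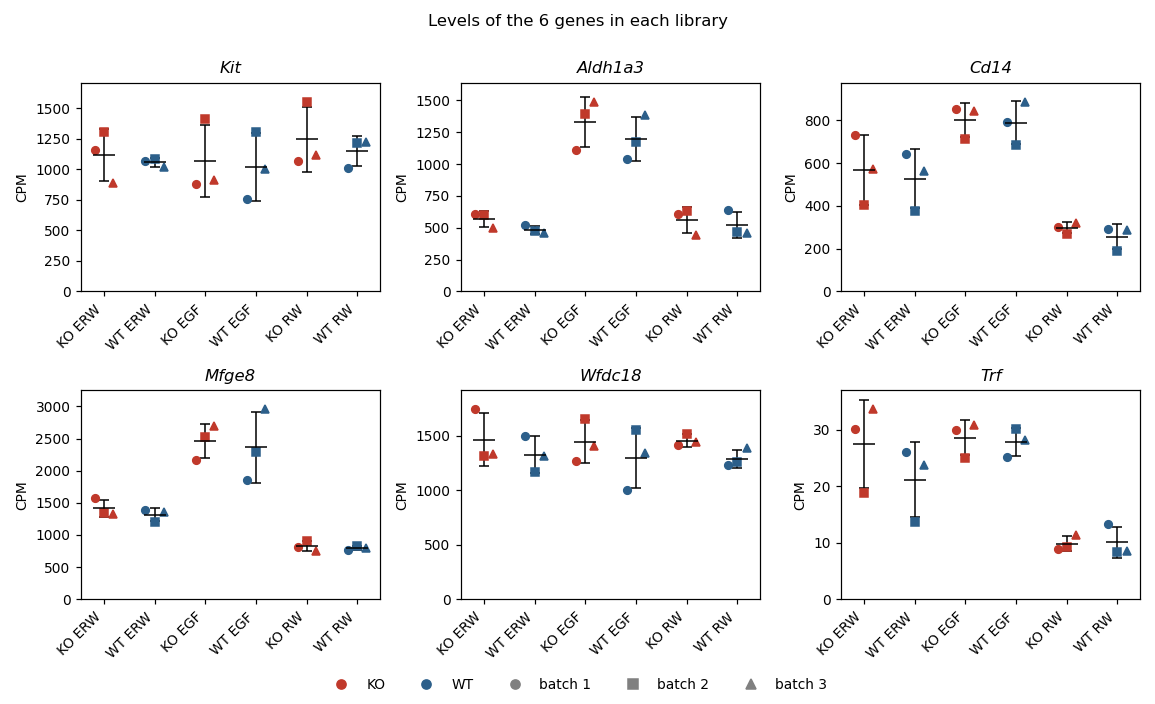
Levels of Kit, Aldh1a3, Cd14, Mfge8, Wfdc18 and Trf in CPM (vertical axis, from 0) in each library of the 6 groups. Points are libraries, their shape gives the batch, and bars give the mean and SD of 3 libraries; Aldh1a3, Cd14, Mfge8 and Trf in EGF medium lie above all RW libraries, and Kit and Wfdc18 overlap between all media.

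**Figure D2:**
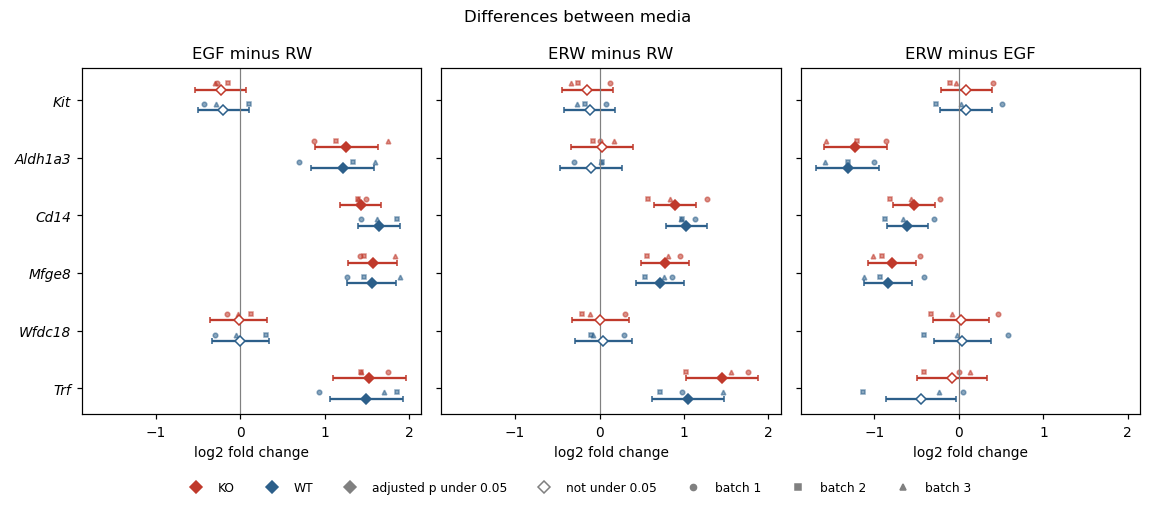
Differences between media as log2 fold change (horizontal axis), fitted with batch as a block; diamonds with 95% intervals are KO (red) and WT (blue), filled where the adjusted p is under 0.05, and small symbols are the differences within each batch. Aldh1a3 stands at 1.26 in KO and 1.21 in WT for EGF minus RW but near 0 for ERW minus RW, whereas Trf stays at 1.45 in KO and 1.05 in WT for ERW minus RW.

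Cd14, the surface co-receptor, had 853, 711 and 845 CPM in EGF medium against 303, 271 and 320 CPM in RW medium in KO organoids. In WT organoids it had 790, 685 and 887 CPM in EGF medium against 293.5, 189 and 287 CPM in RW medium. No EGF library overlapped an RW library in either genotype; among all genes tested, 8.59% in KO and 11.4% in WT were higher without overlap. The log2 fold change was 1.43 ± 0.12 (SE) in KO (edgeR adjusted p = 5.2e-07) and 1.64 ± 0.12 in WT (edgeR adjusted p = 1.02e-07). With all factors present (ERW medium), Cd14 took intermediate levels, with 730, 402 and 570 CPM in KO and 643, 374 and 561 CPM in WT. These were above every RW library of the same genotype, as were 6.64% of all genes tested in KO and 8.26% in WT. They gave log2 fold changes against RW medium of 0.89 ± 0.12 in KO (edgeR adjusted p = 9.14e-05) and 1.03 ± 0.12 in WT (edgeR adjusted p = 2.71e-05). Against EGF medium, Cd14 in ERW medium fell by 0.53 ± 0.11 on the log2 scale in KO (edgeR adjusted p = 0.00723) and by 0.61 ± 0.12 in WT (edgeR adjusted p = 0.00197). The KO libraries of those groups overlapped, and both calls were lost without the batch term (adjusted p = 0.356 in KO and 0.205 in WT). Batch 1 showed the smallest fall, with log2 differences of -0.22 in KO and -0.30 in WT, against -0.82 and -0.88 in batch 2. Leaving out batch 3 ended both calls (adjusted p = 0.161 in KO and 0.0959 in WT), and leaving out batch 2 ended the KO call (adjusted p = 0.0538).

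Since macrophages and monocytes also carry Cd14, 14 myeloid markers were set beside it. Of the 13 that could be tested, edgeR called 0 between EGF and RW medium in either genotype, with 1 in KO and 0 in WT at an unadjusted p under 0.05 and 0 called by DESeq2. Between ERW and RW medium edgeR also called 0, with 2 in KO and 8 in WT at an unadjusted p under 0.05, and DESeq2 called 1 in KO and 6 in WT. Their summed level was 21.7 to 71.3 CPM in KO EGF, 20.6 to 170 CPM in WT EGF, 28.8 to 51.7 CPM in KO RW and 39.8 to 79.9 CPM in WT RW libraries. In ERW libraries the sum was 10.9 to 25.9 CPM in KO and 9.57 to 31.3 CPM in WT. Csf1r fell in ERW against EGF medium in both genotypes and Fcer1g in KO, calls that were lost without the batch term. In edgeR 5 had an unadjusted p under 0.05 there in each genotype, and DESeq2 called 2 in KO and 4 in WT. The list median log2 fold change was -1.54 in KO and -1.37 in WT, the same sign as the fall of Cd14. In ERW against RW medium, where Cd14 rose, the median was -1.38 in KO and -1.66 in WT. The part of these cells in the Cd14 levels was not tested.

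Other genes of lipopolysaccharide reception were set beside Cd14. Between EGF and RW medium, 13.5% of all genes tested were called in KO and 15.4% in WT. The list median log2 fold change was 0.02 in each genotype, where the median of all genes was -0.02 in KO and -0.01 in WT. Of 12 tested, 2 rose in EGF against RW medium in both genotypes. They were Tlr2, a receptor for bacterial lipoproteins that also uses Cd14, at 0.83 ± 0.12 in KO and 0.92 ± 0.13 in WT, and Myd88, the adaptor of Toll-like receptors, at 0.23 ± 0.07 in KO and 0.41 ± 0.07 in WT. These calls were kept in WT and lost in KO without the batch term. Tlr4, the signalling receptor itself, averaged 35.8 CPM in KO EGF and 33.5 CPM in WT EGF against 29.3 CPM in KO RW and 28.1 CPM in WT RW, and its partner Ly96 stayed between 4.0 and 5.0 CPM on average in all groups; neither was called between any media. Lbp, which delivers lipopolysaccharide to Cd14, was higher in ERW than in EGF medium, by 0.58 ± 0.16 in KO and 0.53 ± 0.16 in WT, calls that were lost without the batch term. Cd14 had the opposite sign there, whereas Tlr2 fell as Cd14 did, by 0.60 in KO and by 0.72 in WT. In ERW against RW medium, where Cd14 was higher, Myd88 was higher by 0.35 in KO and 0.37 in WT and Lbp by 0.74 in WT, while Lbp was not called in KO (0.47). These Tlr2, Myd88 and Lbp calls were also lost without the batch term.

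Kit, the other surface receptor, showed no called difference between media. It had 882, 1412 and 914 CPM in KO EGF libraries against 1066, 1555 and 1119 CPM in KO RW libraries. In WT organoids it had 754, 1310 and 1005 CPM in EGF medium against 1013, 1220 and 1221 CPM in RW medium. The ranges overlapped, and the log2 fold change was -0.23 in KO (95% interval -0.53 to 0.07, edgeR adjusted p = 0.357) and -0.20 in WT (-0.50 to 0.10, edgeR adjusted p = 0.43). In KO the value was called when only the KO EGF and KO RW groups and batches entered the fit (log2 fold change -0.24, adjusted p = 0.0352). ERW libraries had 1162, 1307 and 889 CPM in KO and 1072, 1086 and 1018 CPM in WT, within the range of the other media. A share of 51.4% of the variance of log2 Kit levels over the 18 libraries lay between batches and 12.5% between media. Batch 2 held the highest Kit level of KO ERW, WT ERW, KO EGF, WT EGF and KO RW, while WT RW had 1220 CPM in batch 2 and 1221 CPM in batch 3.

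Ligand and signalling genes around Kit were called in some comparisons. Of 12 tested, edgeR called 0 between EGF and RW medium in WT, where 15.4% of all genes tested were called. Of the 12, 3 had an unadjusted p under 0.05 there and DESeq2 called 2. In KO, 13.5% of all genes tested were called. Shc1, an adaptor, was higher in KO by 0.24 and Gab2, a docking protein, lower by 0.37 on the log2 scale. Kitl averaged 76.1 CPM in KO EGF and 73.5 CPM in WT EGF against 68.6 CPM in KO RW and 65.7 CPM in WT RW, and was not called in either. In ERW medium it averaged 57.5 CPM in KO and 64.0 CPM in WT, and was called lower than in EGF medium in KO (log2 fold change -0.39, edgeR adjusted p = 0.043) but not in WT (-0.19, adjusted p = 0.32); the difference between genotypes was not called. Gab2 was lower in ERW than in RW medium in both genotypes (-0.43 in KO and -0.39 in WT), and Sh2b3, an adaptor that dampens cytokine receptors, was lower in ERW than in EGF medium in WT (-0.28). None of these calls held without the batch term. Mast cells and melanocytes, which also carry Kit, left little trace: 8 mast cell markers summed to 0 to 1.59 CPM over the 18 libraries with Fcer1a, Ms4a2 and Mrgprb2 at 0 in every group, and 6 melanocyte markers to 0.493 to 2.62 CPM with Slc45a2 at 0.

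Aldh1a3 was the member whose rise in EGF medium was not seen when NGS-Wnt and Rspo2 were also present. It had 1110, 1394 and 1491 CPM in EGF medium against 607, 635 and 441 CPM in RW medium in KO organoids. WT organoids had 1041, 1175 and 1384 CPM in EGF medium against 641, 464 and 457 CPM in RW medium. Groups did not overlap, and the log2 fold change was 1.26 ± 0.17 in KO (edgeR adjusted p = 0.000244) and 1.21 ± 0.17 in WT (edgeR adjusted p = 0.000268). In ERW medium it had 611, 603 and 499 CPM in KO and 520, 473 and 461 CPM in WT, overlapping the RW libraries and lying below every EGF library; 8.14% of all genes tested in KO and 12.2% in WT were lower in ERW than in EGF medium without overlap. Against RW medium the log2 fold change was 0.03 (95% interval -0.34 to 0.39) in KO and -0.10 (-0.47 to 0.27) in WT, neither called. Against EGF medium Aldh1a3 in ERW medium fell by 1.23 ± 0.17 on the log2 scale in KO (edgeR adjusted p = 0.000838) and by 1.32 ± 0.17 in WT (edgeR adjusted p = 0.000322). These calls held without the batch term and when any library or batch was left out.

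Among the retinoid genes around Aldh1a3, more were called lower than higher in EGF medium. The share called over all genes tested, in either direction, was 13.5% in KO and 15.4% in WT. Of 17 tested, 1 rose and 4 fell in EGF against RW medium in both genotypes, with a list median of -0.53 in KO and -0.30 in WT. Aldh1a1, a second retinal dehydrogenase, had log2 fold changes of -1.78 ± 0.41 in KO and -1.92 ± 0.40 in WT, and was higher in ERW than in EGF medium by 1.51 ± 0.40 in KO and 2.25 ± 0.40 in WT. Its group means were only 2.6 CPM in KO EGF and 2.3 CPM in WT EGF against 8.3 CPM in both RW groups. Crabp2, which carries retinoic acid to its receptor, fell by 1.36 ± 0.20 in KO and by 1.34 ± 0.20 in WT. Rdh10, which makes the retinal that Aldh1a3 oxidises, fell by 0.86 ± 0.17 in KO and by 0.90 ± 0.17 in WT, and Aldh1a7 fell by 1.07 ± 0.33 in both genotypes. Rara, a retinoic acid receptor, rose by 0.92 ± 0.18 in KO and 1.01 ± 0.18 in WT. Between EGF and RW medium the calls of Aldh1a1 and Crabp2 were kept without the batch term and those of Rdh10, Aldh1a7 and Rara were lost. The Aldh1a1 call of ERW against EGF medium was kept in WT and lost in KO (adjusted p = 0.14). In ERW against RW medium, where Aldh1a3 was not called, 5 of the 17 were called lower in KO and 6 in WT. The list median there was -0.73 in KO and -0.76 in WT. The list includes Aldh1a2, Dhrs9 and Rarb, which averaged at most 1.25, 0.89 and 1.64 CPM in any group. Rdh10, Aldh1a7, Rbp4 and Rarres1 fell in both genotypes, Cyp26a1 in KO and Crabp2 and Cyp26b1 in WT. Some levels were low: Rarres1 averaged 0.87 CPM in KO ERW and 0.84 CPM in WT ERW against 2.96 CPM in KO RW and 3.36 CPM in WT RW. Rbp4 averaged 1.71 CPM in KO ERW and 1.95 CPM in WT ERW against 12.4 CPM in KO RW and 9.09 CPM in WT RW. Rara alone was called higher, in WT, a call lost without the batch term. Without that term 0 were called lower in KO and 1 in WT, and the Rdh10 and Aldh1a7 calls were lost.

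Mfge8 had 2169, 2518 and 2695 CPM in EGF medium against 811, 911 and 755 CPM in RW medium in KO organoids. WT organoids had 1857, 2292 and 2954 CPM in EGF medium against 772, 826 and 797 CPM in RW medium. Every EGF library exceeded every RW library, and medium accounted for 94.7% of the variance of log2 Mfge8 levels, the largest share of the 6 genes. The log2 fold change was 1.57 ± 0.14 in KO (edgeR adjusted p = 2e-06) and 1.56 ± 0.14 in WT (edgeR adjusted p = 1.7e-06). ERW libraries had 1572, 1342 and 1327 CPM in KO and 1394, 1199 and 1352 CPM in WT, which lay between the EGF and RW libraries without overlapping either. Against RW medium this was a log2 rise of 0.78 ± 0.13 in KO (edgeR adjusted p = 0.00126) and 0.72 ± 0.13 in WT (edgeR adjusted p = 0.00241). Against EGF medium Mfge8 fell by 0.79 ± 0.13 in KO (edgeR adjusted p = 0.00194) and by 0.84 ± 0.13 in WT (edgeR adjusted p = 0.000757) on the log2 scale. The KO call against EGF medium was lost when batch 2 was left out (adjusted p = 0.0583).

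Among the genes of milk fat globules and phosphatidylserine uptake, the integrin partners of Mfge8 and its closest relative were higher in EGF medium. Of 13 tested, 4 rose and 2 fell in KO and 6 rose and 2 fell in WT between EGF and RW medium, with a list median of -0.06 in KO and -0.04 in WT. Edil3, a secreted paralogue with the same lipid-binding and integrin-binding design, rose by 2.81 ± 0.23 in KO and 2.96 ± 0.23 in WT on the log2 scale, to 24.0 CPM in KO EGF and 25.6 CPM in WT EGF against 3.6 CPM in KO RW and 3.1 CPM in WT RW. The integrin subunits that form receptors for Mfge8 rose less: Itgav by 0.37 ± 0.09 in KO and 0.48 ± 0.09 in WT, and Itgb5 by 0.50 ± 0.09 in KO and 0.42 ± 0.09 in WT. Itgb3, another beta subunit that pairs with Itgav and itself a luminal progenitor marker, rose by 2.41 ± 0.35 in KO and 2.47 ± 0.35 in WT. In ERW against EGF medium Edil3, Itgb3, Itgav and Itgb5 all fell in both genotypes, by 1.25, 1.22, 0.65 and 0.67 in KO and by 1.25, 1.32, 0.67 and 0.74 in WT. Without the batch term the EGF against RW calls of Edil3 and Itgb3 were kept and those of Itgav and Itgb5 were lost, and in ERW against EGF medium only the WT falls of Itgav and Itgb5 were kept.

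The other genes of that list split. Mertk and Tyro3, receptor kinases that take up dying cells, fell in EGF against RW medium, Mertk by 1.30 in KO and 0.80 in WT and Tyro3 by 0.64 in KO and 0.57 in WT on the log2 scale. Axl, the related kinase, rose in WT (0.46) and was not called in KO (0.30). Cidea, a lipid droplet protein, rose by 1.46 in KO and 2.75 in WT, with group means of 4.7 CPM in KO EGF and 4.3 CPM in WT EGF against 1.7 CPM in KO RW and 0.6 CPM in WT RW. Xdh, a major protein of the milk fat globule membrane, was not called between EGF and RW medium but was higher in ERW than in EGF medium by 0.48 in both genotypes, a call lost without the batch term. Between EGF and RW medium the list had 1 gene higher and 2 lower in KO and 2 higher and 1 lower in WT without that term. Btn1a1, the membrane partner of Xdh, and Muc1 were not called between any media. Cd36 had log2 fold changes of -2.81 in KO and -2.55 in WT for ERW against RW medium. For ERW against EGF medium they were -2.29 and -2.11, and these calls were lost without the batch term. Of the list, 1 gene was higher and 5 lower in ERW than in EGF medium in each genotype. Against RW medium 2 were higher and 4 lower in KO and 3 higher and 3 lower in WT, with Gas6 lower in both.

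Trf rose with EGF whether or not NGS-Wnt and Rspo2 were present. In KO organoids it had 30.1, 25.1 and 30.8 CPM in EGF medium against 8.9, 9.3 and 11.4 CPM in RW medium, and in WT organoids 25.2, 30.2 and 28.2 CPM in EGF medium against 13.2, 8.4 and 8.6 CPM in RW medium. No libraries overlapped, and the log2 fold change was 1.53 ± 0.20 in KO (edgeR adjusted p = 6.14e-05) and 1.50 ± 0.20 in WT (edgeR adjusted p = 6.21e-05). In ERW medium it had 30.1, 18.8 and 33.6 CPM in KO and 26.1, 13.7 and 23.9 CPM in WT, with batch 2 lowest in both. Against RW medium Trf was higher by 1.45 ± 0.20 in KO (edgeR adjusted p = 0.000166) and 1.05 ± 0.20 in WT (edgeR adjusted p = 0.00239), again without overlap. The WT call was lost when batch 3 was left out (adjusted p = 0.0942). Against EGF medium it was not called, at -0.08 (95% interval -0.49 to 0.33) in KO and -0.44 (-0.86 to -0.03, edgeR adjusted p = 0.145) in WT.

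Of 15 tested genes of iron transport and storage, 5 rose and 1 fell in EGF against RW medium in both genotypes, with a list median of 0.14 in KO and 0.12 in WT. Over all genes tested, 13.5% in KO and 15.4% in WT were called there. Meltf (melanotransferrin), a membrane relative of Trf, rose by 2.60 ± 0.38 in KO and 2.72 ± 0.38 in WT on the log2 scale. Cp (ceruloplasmin), the ferroxidase that loads iron onto transferrin, rose by 1.73 ± 0.13 in KO and 2.01 ± 0.13 in WT, and averaged 1019 CPM in KO EGF and 1004 CPM in WT EGF against 307 CPM in KO RW and 251 CPM in WT RW. Lcn2, which binds iron through siderophores, rose by 1.34 in KO and 1.39 in WT, Fth1 (ferritin heavy chain) by 0.46 in KO and 0.59 in WT and Slc11a2, an iron importer, by 0.42 in KO and 0.47 in WT. Ltf (lactoferrin), the milk relative of Trf, went the other way and fell by 1.16 ± 0.13 in KO and by 0.99 ± 0.13 in WT. Without the batch term the Ltf call was lost in both genotypes and those of Fth1 and Slc11a2 were lost in KO. Tfrc, the transferrin receptor, averaged 47.2 CPM in KO EGF and 48.5 CPM in WT EGF against 52.2 CPM in KO RW and 49.1 CPM in WT RW, and was not called between any media. Cp, Meltf and Lcn2 were also higher in ERW than in RW medium in both genotypes, while Heph, a membrane ferroxidase, was lower, and these calls held without the batch term.

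**Figure D3:**
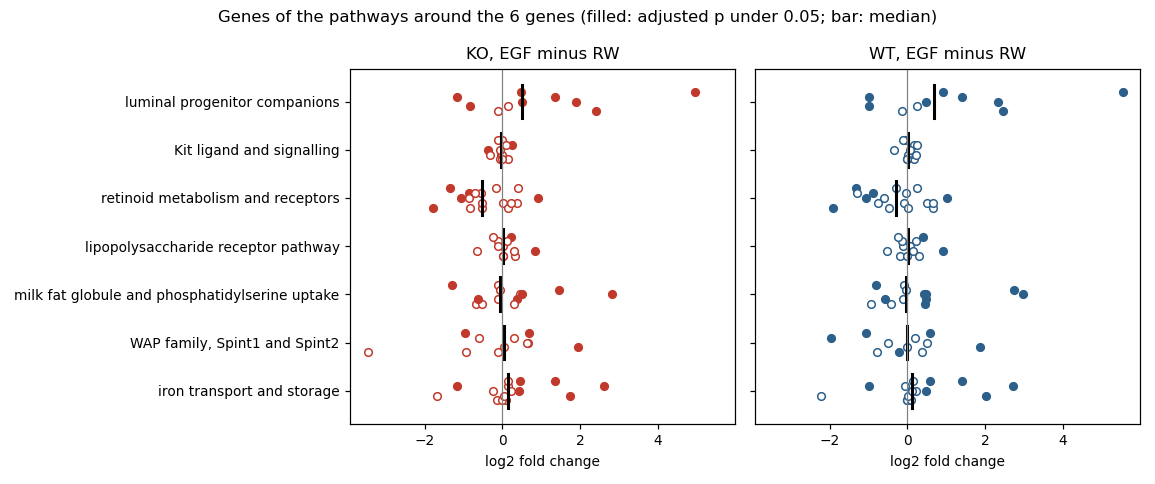
Log2 fold change of EGF minus RW medium (horizontal axis) for every tested gene of 7 lists around the 6 genes, in KO (left) and WT (right); filled points have an adjusted p under 0.05 and black bars are list medians. The medians of the Kit, lipopolysaccharide, milk fat globule and WAP and Spint lists lie between -0.06 and 0.05, and the filled points furthest to the right are Csn3 among the companions and Edil3 and Meltf in the milk fat globule and iron lists.

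Wfdc18 was level across media. It had 1266, 1656 and 1411 CPM in EGF medium against 1413, 1521 and 1440 CPM in RW medium in KO organoids, and in WT organoids 1002, 1553 and 1339 CPM in EGF medium against 1230, 1259 and 1384 CPM in RW medium. ERW libraries had 1743, 1318 and 1330 CPM in KO and 1501, 1170 and 1314 CPM in WT, and all media overlapped. The log2 fold change of EGF against RW medium was -0.02 in KO (95% interval -0.35 to 0.32) and 0.00 in WT (-0.33 to 0.34), and that of ERW against EGF medium was 0.02 in KO (-0.31 to 0.36) and 0.04 in WT (-0.30 to 0.38). Medium accounted for 0.533% of its variance. Its batches differed in direction: ERW exceeded EGF medium by 0.46 in KO and 0.58 in WT in batch 1, and was lower by 0.33 in KO and 0.41 in WT in batch 2, both as log2 differences within the batch. Kit showed the same split, with log2 differences of 0.40 in KO and 0.51 in WT in batch 1 and -0.11 in KO and -0.27 in WT in batch 2.

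Some relatives of Wfdc18 were called, as were 13.5% of all genes tested in KO and 15.4% in WT between EGF and RW medium. Of 11 tested genes of a list of the four-disulfide core family, to which the Kunitz-type protease inhibitors Spint1 and Spint2 had been added, 2 rose and 1 fell in KO and 2 rose and 3 fell in WT between EGF and RW medium. Wfdc2, a secreted epithelial protein, rose by 1.95 ± 0.17 in KO and 1.86 ± 0.17 in WT on the log2 scale, and Spint1, a membrane inhibitor of the serine proteases hepsin and matriptase, rose by 0.69 ± 0.08 in KO and 0.58 ± 0.08 in WT, calls that held without the batch term. Wfdc12 fell by 0.96 in KO and by 1.08 in WT, Wfdc5 by 1.96 and Spint2 by 0.22 in WT. Wfdc5 averaged only 1.7 CPM in WT EGF against 6.0 CPM in WT RW. Slpi averaged between 479 and 792 CPM in the 6 groups and was not called between any media. In a fit without the batch term 2 genes of the list stayed higher and 0 lower in KO, and 2 higher and 2 lower in WT. The milk protein Wap, for which the family is named, stayed under 1 CPM on average in every group.

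Genes commonly named together with these markers for luminal progenitors were changed in both directions. Of 10 tested companions, 6 rose and 2 fell in EGF against RW medium in each genotype, with a list median of 0.49 in KO and 0.69 in WT. Csn3 (kappa casein) rose by 4.96 ± 0.35 in KO and 5.54 ± 0.36 in WT, and Hey1, a Notch target, by 1.90 ± 0.24 in KO and 2.34 ± 0.24 in WT on the log2 scale. Lcn2 and Itgb3, given above, and Itga2, a collagen receptor subunit, and Sox10, a neural crest and progenitor transcription factor, also rose. Ehf, an ETS factor of epithelia, fell by 0.83 ± 0.11 in KO and by 0.98 ± 0.11 in WT, as did Ltf. Elf5, the ETS factor that drives alveolar fate, averaged 312 CPM in KO EGF and 309 CPM in WT EGF against 337 CPM in KO RW and 338 CPM in WT RW and was not called, and nor was Notch3. In ERW against EGF medium Elf5, Ehf and Ltf were higher in both genotypes. They were higher by 0.42, 0.61 and 0.93 in KO and by 0.41, 0.66 and 1.12 in WT. Itgb3 was lower in both genotypes, and Lcn2, Itga2 and Notch3 were lower in WT. The list median was -0.10 in KO and -0.35 in WT. In ERW against RW medium Hey1, Lcn2 and Csn3 were higher in both genotypes and Itgb3 and Sox10 in KO, with 0 lower. Fits without the batch term called 3 higher there in each genotype. Without the batch term 4 companions were higher and 1 lower in KO, and 5 higher and 1 lower in WT, between EGF and RW medium; between ERW and EGF medium 0 were called in KO and Ehf alone in WT.

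**Figure D4:**
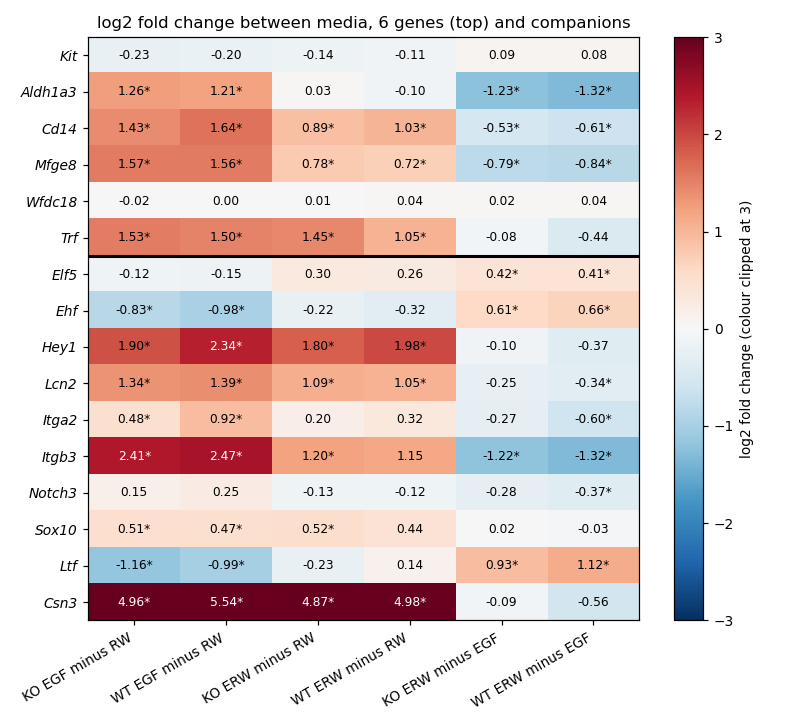
Log2 fold change (colour and number, with colour clipped at 3) for the 6 genes above the line and 10 companions below it, in 6 comparisons of media; an asterisk marks an adjusted p under 0.05. Kit, Wfdc18, Elf5 and Notch3 have no asterisk for EGF or ERW minus RW, while Aldh1a3, Cd14, Mfge8, Trf, Hey1, Lcn2, Itga2, Itgb3, Sox10 and Csn3 are positive and marked for EGF minus RW in both genotypes.

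Markers of other cells moved with the media as well. Between EGF and RW medium, Krt5, Krt14, Krt17 and Trp63 fell among 10 basal and myoepithelial markers in both genotypes and Oxtr rose in KO. That list summed to 4211 to 5630 CPM in KO EGF and 4293 to 5031 CPM in WT EGF against 7164 to 9172 CPM in KO RW and 6933 to 9749 CPM in WT RW libraries. Of 9 tested hormone-sensing luminal markers, 6 rose and 1 fell in each genotype, Esr1, Pgr, Prlr, Foxa1 and Cited1 among those that rose in both. Without the batch term 3 basal markers were lower in KO and 4 in WT, and 2 hormone-sensing markers were higher in KO and 3 in WT, where 1 was lower. The sum of the hormone-sensing list was 356 to 414 CPM in KO EGF and 384 to 424 CPM in WT EGF against 210 to 326 CPM in KO RW and 222 to 252 CPM in WT RW libraries. In ERW against RW medium, Krt5, Krt14, Krt17, Trp63, Acta2, Myh11 and Mylk, 7 of the 10 basal markers, fell in both genotypes, with a list median log2 fold change of -0.77 in KO and -0.61 in WT. Prlr, Foxa1, Cited1 and Prom1 rose among the hormone-sensing markers in both genotypes and Wnt4 fell in KO. In ERW against EGF medium the contractile genes Acta2, Myh11, Mylk and Tagln fell in both genotypes, while Krt5 and Krt17 rose in both and Krt14 rose in WT. Esr1 and Pgr fell there in both genotypes and Areg fell in WT, and Ly6a rose in both. Trp63 in KO was, without the batch term, the one basal call kept in these ERW comparisons, and of the hormone-sensing markers 2 stayed higher in ERW than in RW medium in each genotype and 1 lower in KO, with 0 called against EGF medium. The basal sum was 4425 to 6453 CPM in KO ERW and 4862 to 6171 CPM in WT ERW libraries. The hormone-sensing sum was 280.4 to 385 CPM in KO ERW and 340.2 to 359.9 CPM in WT ERW libraries. Of 8 luminal keratin and epithelial genes, 2 rose and 2 fell in KO between EGF and RW medium. In WT 1 rose and 3 fell. Between ERW and RW medium 3 rose and 1 fell in KO and 2 rose and 1 fell in WT. Epcam was among those that rose in each comparison. Without the batch term 1 was called, lower in WT in ERW against RW medium. Of 7 milk protein genes, Csn1s1, Csn3 and Lalba were higher in EGF and ERW than in RW medium in both genotypes, with 0 lower. List medians were 1.88 in KO and 2.74 in WT for EGF and 2.40 and 1.93 for ERW. These medians include genes with few reads: Csn1s2a, Csn2, Wap and Glycam1 averaged at most 0.88, 0.46, 0.51 and 2.94 CPM in any group. Without the batch term 2 were higher for EGF in KO and 3 otherwise. EGF libraries summed to 914 to 1354 CPM in KO and 873 to 1228 CPM in WT. ERW libraries had 806 to 1761 CPM in KO and 736 to 1298 CPM in WT. RW libraries had 59.7 to 251 CPM in KO and 61.0 to 165 CPM in WT. The part of these shifts in the levels of Aldh1a3, Cd14, Mfge8 and Trf was not tested.

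Endothelial, adipocyte and some fibroblast markers were called lower in ERW medium than in the other media, and fewer or none without the batch term. All 8 endothelial and all 8 adipocyte markers were called lower in ERW than in RW medium in both genotypes, and 3 of 8 fibroblast markers in KO and 4 of 8 in WT. Against EGF medium, 5 of 8 endothelial, 6 of 8 adipocyte and 5 of 8 fibroblast markers were lower in KO and 8, 7 and 6 of 8 in WT. No adipocyte marker was called in either comparison without the batch term. Endothelial markers called lower without it were 4 in KO and 3 in WT against RW medium, and 0 in KO and 6 in WT against EGF medium. Fibroblast markers called lower without it were 1 in each genotype against RW medium and 0 against EGF medium. Between EGF and RW medium, Pdgfra was higher in both genotypes and Col3a1 and Pdgfrb in WT among the fibroblast markers, calls that were lost without the batch term. Summed adipocyte markers were 46.4 to 240 CPM in KO ERW and 42.2 to 281 CPM in WT ERW, against 199.5 to 702 CPM in KO EGF, 317 to 778 CPM in WT EGF, 228 to 1178 CPM in KO RW and 325 to 1146 CPM in WT RW libraries. Summed endothelial markers were 157 to 224 CPM in KO ERW and 86.9 to 196 CPM in WT ERW, against 290 to 405 CPM in KO EGF, 378 to 460 CPM in WT EGF, 273 to 634 CPM in KO RW and 276 to 407 CPM in WT RW libraries. The fibroblast sum was 499.9 to 1134 CPM in KO ERW and 402 to 1177 CPM in WT ERW, against 751 to 2142 CPM in KO EGF, 914 to 2876 CPM in WT EGF, 958 to 1916 CPM in KO RW and 660 to 2443 CPM in WT RW libraries. The falls of Aldh1a3, Mfge8 and Cd14 in ERW against EGF medium had the same sign as these lists, and the rises of Cd14, Mfge8 and Trf in ERW against RW medium the opposite sign. Their part in the results was not tested.

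Loss of RasGRP1 left no called difference in any of the 6 genes. In edgeR 0 of 6 were called in ERW, EGF or RW medium or over the mean of the media, against 0.0819%, 0.0702%, 0.0819% and 0.339% of all genes tested. Of the 6, 0 had an unadjusted p under 0.05 in any of these comparisons, and DESeq2 called 0 as well. On the log2 scale KO minus WT ran between 0.06 and 0.38 when ERW was used. The range was 0.02 to 0.16 with EGF and -0.02 to 0.24 with RW medium. The highest was Trf in ERW medium, at 30.1, 18.8 and 33.6 CPM in KO against 26.1, 13.7 and 23.9 CPM in WT. Trf was higher in KO in all 3 batches, but the groups overlapped and the log2 difference was 0.38 (95% interval -0.04 to 0.79, edgeR adjusted p = 0.976). Cd14 in RW medium was next, at 0.24 (-0.000633 to 0.49, edgeR adjusted p = 0.894), and was also higher in KO in each batch. Wfdc18 in RW medium was the one case in which all KO libraries (1413 to 1521 CPM) lay above all WT libraries (1230 to 1384 CPM), with a log2 difference of 0.17 (-0.16 to 0.51, edgeR adjusted p = 0.91); 2% of all genes tested were higher in KO without overlap there.

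Over the mean of the 3 media, the log2 difference of KO minus WT was 0.07 for Kit (95% interval -0.10 to 0.25), 0.16 for Aldh1a3 (-0.05 to 0.38), 0.13 for Cd14 (-0.01 to 0.27), 0.07 for Mfge8 (-0.09 to 0.24), 0.16 for Wfdc18 (-0.04 to 0.35) and 0.13 for Trf (-0.12 to 0.37). All 6 values were positive and none was called; they come from the same libraries and are not independent. Each upper bound was 0.38 or less, so a change of the size seen between EGF and RW medium for Aldh1a3, Cd14, Mfge8 or Trf lay outside these intervals. Tests of whether the medium effect differed between KO and WT called 0 of 6 genes, and 0 of all genes tested, in each of the 3 media comparisons with edgeR; 356, 286 and 306 of all genes had an unadjusted p under 0.05 for EGF against RW, ERW against RW and ERW against EGF medium, and DESeq2 called 1 gene, in ERW against RW medium. The largest such difference among the 6 genes was that of Trf in ERW against RW medium, at 0.40 (95% interval -0.20 to 1.00). Of the genes in the 7 lists, 2 were called between KO and WT: Tyro3 was lower in KO in ERW medium (-0.56) and over the mean (-0.48), and Spint1 was higher over the mean (0.39). Where these 2 genes lie relative to the targeted gene was not examined, and the cause of their differences was not tested. Without the batch term the Spint1 call was kept and both Tyro3 calls were lost (adjusted p = 1 in ERW medium and 0.0613 over the mean).

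**Figure D5:**
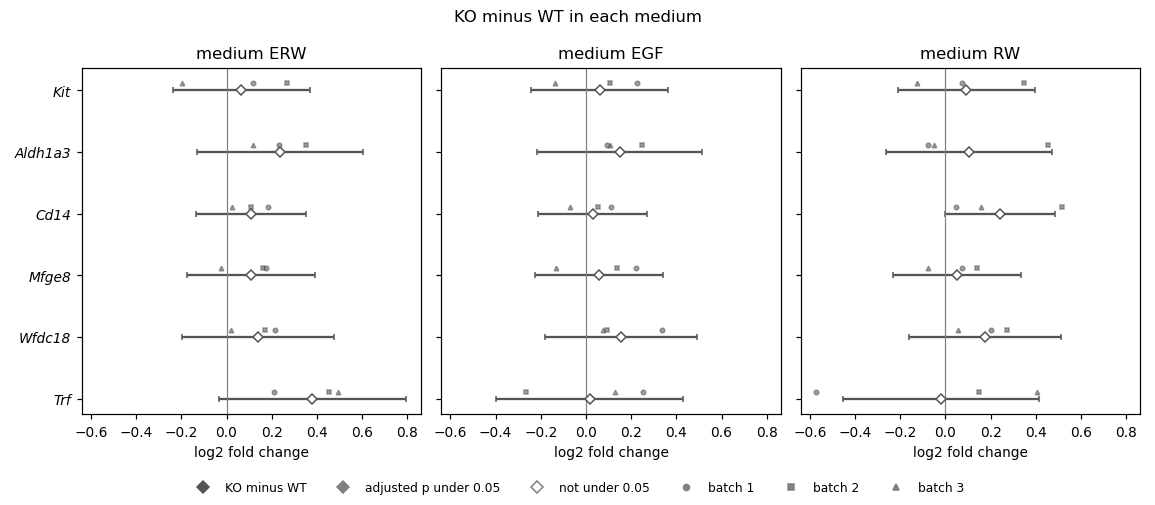
KO minus WT as log2 fold change (horizontal axis) for the 6 genes in ERW, EGF and RW medium; diamonds are fitted values with 95% intervals, open because no adjusted p is under 0.05, and small symbols are differences within each batch. All intervals include 0, and the largest value is Trf in ERW medium at 0.38.

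The genes whose pattern was most like each member were found by Pearson's r of batch-centred log2 CPM over the 18 libraries, among 11194 named genes averaging at least 4 CPM; these values describe libraries that share media and batches. Cd14 was closest to Papln (r = 0.994), Sel1l3 (0.989) and Ace (0.989). Papln averaged 519 CPM in KO EGF and 457 CPM in WT EGF, 281 CPM in KO ERW and 238 CPM in WT ERW, and 92.5 CPM in KO RW and 78.3 CPM in WT RW. Mfge8 was closest to Cp (0.989), Fgfr1 (0.987) and Ace (0.985), so that Ace, the angiotensin-converting enzyme, stood beside both. Aldh1a3 was closest to Arhgef17 (0.985), Lamp1 (0.983) and Pxdn (0.980), and Trf to Gstt3 (0.970), Lcn2 (0.966) and Hey1 (0.966), the last pair of which are companions above. The likest genes were less close for Kit (Slc35f5 at 0.857, Trak1 at 0.854 and Rhou at 0.853) and Wfdc18 (Lrrc26 at 0.808, Lyplal1 at 0.805 and Eapp at 0.784).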

How the data were processed

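Per the labels' protocols, 100 ng of total RNA went into each library and single ends of 50 bases were read. The authors deposited whole-number read counts per Ensembl gene; STAR, DESeq2 and GRCm38 are named in the submitters' processing notes, and versions, annotation and strand setting were not stated there, so reads of antisense genes may be included. A second deposited table holds normalized signal (counts divided by 1 size factor per library, tested on the files), used only for names and positions; its 18 stabilized columns were not used. Counts were tested in edgeR 4.0.16 (R 4.3.3): TMM scaling, filterByExpr by group (minimum count 10, minimum total 15), robust quasi-likelihood F-tests over all 18 libraries with batch as a block, two-sided, 13 contrasts, each adjusted by Benjamini-Hochberg and called under 0.05. The batch comes from the labels; in 45 same-number pairs of groups the correlation of deviations from group means was 0.175 to 0.453. SE is the log2 fold change over the root of F. CPM use TMM library sizes, and RPKM use GENCODE M21 exon lengths. DESeq2 1.42.0, other scaling, no filter, no batch term, only the groups compared, and fits without each library or batch were alternatives. The fit was tested on simulated data. The 6 genes and all lists were chosen with earlier results of these data known. Named genes were the 6, list genes by smallest adjusted p (at most 6 a list and contrast) with ligands, receptors and cofactors of the pathway whatever their call, and the 3 genes most alike. Precision is limited by 3 libraries a group: an exact permutation test of 3 against 3 that ignores batch could not go below 0.1.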

Additional observations from a re-analysis of the deposited data

How the results depend on the processing

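Numbers of genes called over the whole table depended on the batch term. Without the replicate block they were, for KO and WT, 729 and 888 (EGF against RW), 439 and 404 (ERW against RW) and 115 and 369 (ERW against EGF), against 2306 and 2639, 2179 and 1835, and 1991 and 2672 with it. For KO against WT they were 6 in ERW and 5 in RW medium and 22 over the mean without the block, against 14, 14 and 58 with it. DESeq2 called 30, 34, 28 and 190 genes between KO and WT (ERW, EGF, RW and mean) and 1 in the genotype difference of ERW against RW medium. With only the groups compared the KO against WT counts were 23, 7 and 1 in ERW, EGF and RW medium. Fits that left out 1 library or batch called, for KO and WT, 906 to 2008 and 969 to 2557 genes (EGF against RW), 945 to 1937 and 785 to 1415 (ERW against RW), and 366 to 1472 and 653 to 2700 (ERW against EGF). For KO against WT they called 4 to 12, 5 to 12 and 3 to 13 genes in ERW, EGF and RW medium and 19 to 90 over the mean. Of the 6 genes, such fits called 1 to 3 in ERW against EGF medium in KO and 2 to 3 in WT, and 2 to 3 in ERW against RW medium in WT. The 78 results for single members were recomputed 1266 times: 1258 stayed on the same side of the threshold, 7 lost the call and 1 gained it. The sign changed in 133 of these fits, for 41 results, none of them called in either fit, with values of at most 0.36 in size on the log2 scale, and 0 called values changed sign. The 8 that changed are given beside Cd14, Mfge8, Trf and Kit; the cause was not tested. Trf, with at most 1023 counts in a library, had the fewest reads of the 6 genes, and the part of depth in its precision was not tested.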
